A study of Mus musculus with 17 samples.

Results

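Expression was examined of 10 genes whose products carry calcium and magnesium through the distal kidney tubule or set how much of these ions is carried there. The genes were taken by gene symbol from the gene table of 17 mouse kidneys and all 10 of them were found among the 22558 genes used. The members are the entry channels Trpv5 and Trpm6, the calcium-binding proteins Calb1, S100g and Pvalb, the exit transporters Slc8a1, Atp2b1 and Cnnm2, and the regulators Egf and Casr. All 10 passed the filter on low counts in each comparison, with 239 counts (Trpv5) as the lowest value of any member in any mouse.

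As background, the distal convoluted tubule and the connecting tubule take up calcium and magnesium through the cell. The ion enters through a channel in the urine-facing membrane, calcium is ferried across the cell by calbindins, and both leave through pumps and exchangers of the blood-facing membrane. Vitamin D, parathyroid hormone, Klotho and epidermal growth factor are known to regulate this route, and the thick ascending limb upstream of it takes up both ions between the cells.

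RNA of whole kidneys was sequenced, with 1 library per mouse, in male mice that entered the study at 8 weeks of age. The Ctrl group held 5 C57BL/6 mice (labelled WT) that received saline. The Case group held 6 db/db mice, of the strain BKS.Cg-Dock7m +/+ Leprdb/J, that received saline, and the Dapa group held 6 db/db mice of that strain treated with dapagliflozin, which blocks SGLT2, the main glucose carrier of the proximal tubule, at 1 mg/kg/day for 6 weeks. The db allele is a defect of the leptin receptor that makes mice obese and diabetic. Ctrl mice differed from the other mice in genetic background as well as in the leptin receptor, so a difference from Ctrl cannot be told apart from a strain difference. A C57BL/6 group on dapagliflozin was not analysed here.

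The libraries held 13039535 to 17779635 counts. Mitochondrial genes took 17.9% to 20.4% of the counts in Ctrl, 19.8% to 27.3% in Case and 19.7% to 27.6% in Dapa. Lepr was measured at 0.464 to 1.93 FPKM in Ctrl and at 0.659 to 5.40 FPKM in Case, and a gene level does not read the splicing defect of the db allele. Levels are given as FPKM, fragment counts scaled to gene length and to the library total, so that they can be compared between genes. Of the 17 libraries, 7 (3 Ctrl, 1 Case, 3 Dapa) carried FPKM values of Sirt1, Tgfb1 and Bmp4 that did not match their counts. What sets these 7 libraries apart is not given in the sources used here, so calls are given below with and without them. Differences between groups are log2 fold changes of counts with 95% intervals, and a gene was called when edgeR's quasi-likelihood test gave it an adjusted p (Benjamini-Hochberg, over all genes tested) under 0.05. A DEG also had a fold over 2 between the group means of the deposited FPKM. The study set the same fold on FPKM. It describes TMM scaling between libraries before FPKM, while the deposited FPKM hold no TMM factor. Because whole kidneys were measured, fewer cells of a type and less RNA per cell cannot be told apart.

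The promoter windows of S100g, Trpm6 and Egf are shown because these are a calcium buffer that rose, a magnesium channel that rose and the member that fell in Case against Ctrl. Each window holds the 250 bases before the start site in RefSeq's mouse annotation (GRCm38.p6, the same build as mm10), 5′ to 3′ on the strand of the gene, and the start of Trpm6 lies upstream of its start in the table. Capitals mark AGGTCA or GGTTCA, on either strand, which are half-sites of the vitamin D receptor. AGGTCA is a half-site of other nuclear receptors too. S100g lies at chrX:162964600-162964849 on the minus strand, Trpm6 at chr19:18749480-18749729 on the plus strand and Egf at chr3:129755323-129755572 on the minus strand.
S100g: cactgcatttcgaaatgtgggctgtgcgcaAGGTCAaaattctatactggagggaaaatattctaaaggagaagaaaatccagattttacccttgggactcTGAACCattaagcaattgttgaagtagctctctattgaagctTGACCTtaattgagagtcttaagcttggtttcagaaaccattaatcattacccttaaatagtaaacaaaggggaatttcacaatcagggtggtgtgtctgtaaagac
Trpm6: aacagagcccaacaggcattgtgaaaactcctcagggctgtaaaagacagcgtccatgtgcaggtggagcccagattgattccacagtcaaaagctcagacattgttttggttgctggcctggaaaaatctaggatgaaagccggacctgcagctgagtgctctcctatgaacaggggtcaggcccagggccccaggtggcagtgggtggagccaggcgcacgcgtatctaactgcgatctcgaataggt
Egf: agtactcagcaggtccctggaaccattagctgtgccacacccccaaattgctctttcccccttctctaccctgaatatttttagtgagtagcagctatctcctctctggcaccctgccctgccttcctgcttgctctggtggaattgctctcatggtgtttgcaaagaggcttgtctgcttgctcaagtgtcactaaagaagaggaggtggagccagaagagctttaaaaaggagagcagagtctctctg

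The S100g window held 3 such half-sites. AGGTCA stood at base -220 on the strand of the gene and at base -107 on the other strand, and GGTTCA stood at base -149 on the other strand. Of 32851 mouse promoter windows of this length, 14% held AGGTCA and 8.85% held GGTTCA on either strand, and the 2 strings do not overlap one another. The windows of Trpm6 and Egf held neither string, nor the TATA box TATAAA that 12.4% of the windows held. Among the members with a window, TATAAA occurred once, at base -43 of Trpv5. The G and C content was 38.4% for S100g, 54.4% for Trpm6 and 50.4% for Egf. These matches describe the letters and show no binding.

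In db/db kidneys RNA of the calcium channel, of both calbindins and of the sodium-calcium exchanger stood higher than in Ctrl, as did that of the magnesium channel. Calb1, S100g, Slc8a1, Trpv5 and Trpm6 rose, Egf fell, and Casr, Pvalb, Atp2b1 and Cnnm2 did not pass the test in Case against Ctrl. Thus 6 of the 10 members were called, against 13.0% of the 14582 genes tested, with 5 higher (6.09% of all genes were higher) and 1 lower (6.91% lower). At an unadjusted p under 0.05 the members that passed were the same 6, against 28.7% of all genes. Calb1, S100g and Slc8a1 were DEGs, against 3.79% of all genes. Slc8a1 was close to the bound, with a fold of 2.04 in FPKM and a log2 fold change of 0.95 in TMM-scaled counts. The median log2 fold change was 0.48 over the 10 members and 0.03 over all genes tested.

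Under dapagliflozin, no member was called against Case in edgeR's quasi-likelihood test, and neither was any of the 14573 genes (0%). At an unadjusted p under 0.05, S100g alone of the members passed, as did 12.9% of all genes. DESeq2 called 200 genes and edgeR's exact test 125 genes, with 0 members in either. The median log2 fold change of Dapa against Case was 0.07 over the members and -0.01 over all genes.

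In Dapa against Ctrl, Calb1, Slc8a1, S100g, Trpv5 and Trpm6 were called higher and Cnnm2 lower, which is 6 of 10 members against 29.1% of 14647 genes (14.2% higher, 14.9% lower). The same 6 passed at an unadjusted p under 0.05, as did 41.1% of all genes. Calb1, Slc8a1 and S100g were DEGs (7.18% of all genes). Here S100g was close to the bound, with a fold of 2.005 in FPKM and a log2 fold change of 0.90 in TMM-scaled counts. The comparisons share mice, Ctrl with Ctrl and Case with Case, so they are not independent of one another. Their values are given side by side for each member.

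**Figure D1:**
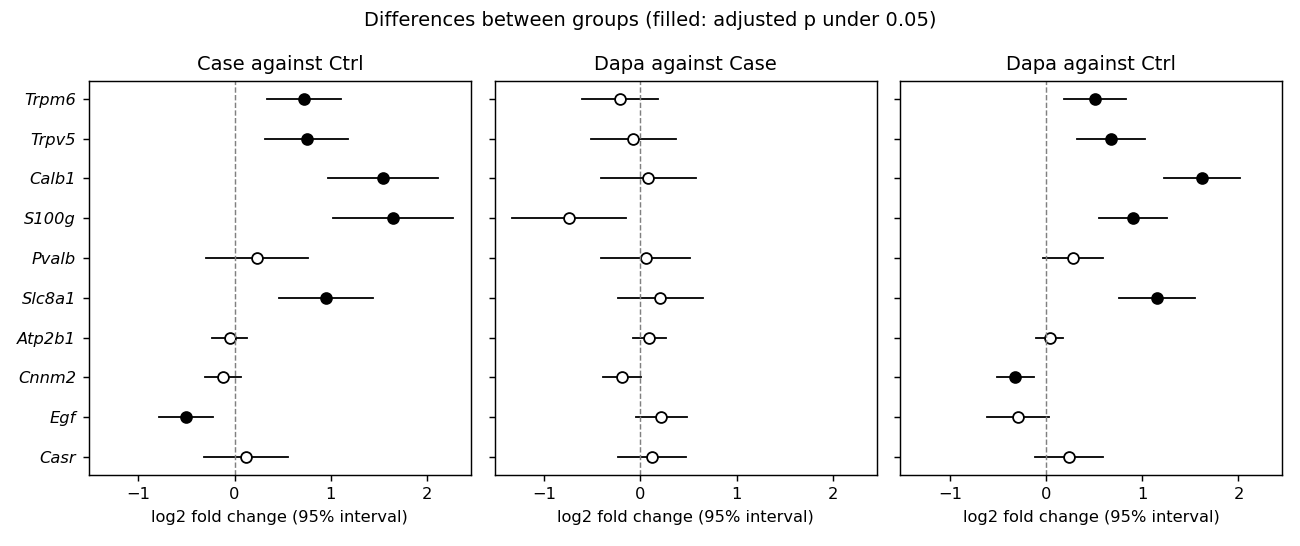
The log2 fold change (horizontal axis) of each of the 10 genes, from left to right for Case and Ctrl, for Dapa and Case, and for Dapa and Ctrl, with bars for the 95% interval of edgeR's quasi-likelihood fit and filled circles for an adjusted p under 0.05. Calb1 lies at 1.55 and 1.62 against Ctrl and at 0.08 between Dapa and Case, and S100g lies at -0.74 between Dapa and Case with an open circle.

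Trpv5 is the calcium entry channel of the late distal convoluted and connecting tubule. The gene (ENSMUSG00000036899) lies at chr6:41652173-41680769 of mm10 on the minus strand. Trpv5 stood at 4.50, 5.84, 4.23, 5.40 and 4.15 FPKM in the Ctrl mice. The Case mice ranged from 4.89 to 11.2 FPKM with a median of 8.61 FPKM, and the Dapa mice from 5.73 to 10.7 FPKM with a median of 8.38 FPKM. In each of the db/db groups, 5 of 6 mice lay above every Ctrl mouse, and 1 mouse, Case replicate 1 and Dapa replicate 7, lay within the Ctrl range. The mean was 4.83 ± 0.754 FPKM (SD, n = 5) in Ctrl, 8.54 ± 2.42 FPKM (n = 6) in Case and 8.26 ± 1.90 FPKM (n = 6) in Dapa.

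The log2 fold change of Trpv5 was 0.75 ± 0.20 (SE; interval 0.32 to 1.19, adjusted p = 0.0284) in Case against Ctrl and 0.67 ± 0.16 (adjusted p = 0.00932) in Dapa against Ctrl. Between Dapa and Case it was -0.07 (interval -0.52 to 0.37, adjusted p = 0.906). The call in Case against Ctrl was the least steady among the members that rose, as it held under 17 of 25 alternative settings, with values of 0.46 to 0.86. It was lost without Ctrl replicate 1, 3 or 5 or Case replicate 4, at 0.67 to 0.74, and with a term for the 7 libraries in the fit, at 0.54 (adjusted p = 0.148).

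Trpm6 is the magnesium entry channel of the distal convoluted tubule, which carries a kinase domain. The gene (ENSMUSG00000024727) lies at chr19:18749983-18892510 on the plus strand. In Ctrl, Trpm6 stood at 3.62, 3.42, 3.10, 4.54 and 3.31 FPKM. The Case mice ranged from 4.40 to 8.98 FPKM (median 5.89 FPKM) and the Dapa mice from 4.02 to 7.59 FPKM (median 5.35 FPKM). Again 5 of 6 mice of each db/db group lay above all Ctrl mice, while Case replicate 1 and Dapa replicate 11 lay below the highest Ctrl mouse.

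Trpm6 had a log2 fold change of 0.72 ± 0.18 (SE; interval 0.34 to 1.11, adjusted p = 0.0202) in Case against Ctrl and of 0.51 ± 0.15 (adjusted p = 0.0232) in Dapa against Ctrl. The value of Dapa against Case was -0.21 (interval -0.61 to 0.18, adjusted p = 0.649). The call in Case against Ctrl was lost without Ctrl replicate 2, 3 or 5 (0.68 to 0.71) and with a term for the 7 libraries, at 0.66 (adjusted p = 0.0827). In Dapa against Ctrl it was lost without Ctrl replicate 3 or 5, at 0.47 in each case.

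Calb1 encodes calbindin-D28k, the main calcium ferry of the distal tubule cell. The gene (ENSMUSG00000028222) lies at chr4:15881264-15908064 on the plus strand. Its levels in the Ctrl mice were 45.2, 61.8, 35.8, 62.2 and 36.4 FPKM. The Case mice ranged from 91.0 to 225 FPKM (median 143 FPKM) and the Dapa mice from 119 to 190 FPKM (median 174 FPKM). All 12 db/db mice lay above all 5 Ctrl mice, and the Dapa range lay within the Case range. The mean was 48.3 ± 13.1 FPKM in Ctrl (n = 5), 147 ± 51.8 FPKM in Case (n = 6) and 160 ± 30.6 FPKM in Dapa (n = 6).

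The mean of Calb1 was 3.05 times that of Ctrl in Case and 3.31 times in Dapa. Its log2 fold change was 1.55 ± 0.27 (SE; interval 0.97 to 2.12, adjusted p = 0.00347) in Case against Ctrl and 1.62 ± 0.19 (interval 1.22 to 2.02, adjusted p = 0.000205) in Dapa against Ctrl. Between Dapa and Case it was 0.08 (interval -0.41 to 0.58, adjusted p = 0.905). Groups without overlap were found in 8.43% of all genes in Case against Ctrl and in 14.5% in Dapa against Ctrl. Calb1 and S100g were among them in the first, and Calb1, S100g and Slc8a1 in the second.

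S100g encodes calbindin-D9k, a small calcium-binding protein of intestine and kidney that vitamin D is known to induce. The gene (ENSMUSG00000040808) lies at chrX:162961992-162964599 on the minus strand, inside Ctps2 on the opposite strand. Ctps2 summed to 8298 counts over all 17 mice, against at least 1947 counts of S100g in each mouse, and whether counting used the strand is not given in the sources used here. In the 5 Ctrl mice S100g stood at 322, 388, 263, 346 and 257 FPKM.

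In Case, S100g was at 1431, 1648, 471, 808, 725 and 1155 FPKM in replicates 1 to 6, and in Dapa at 536, 604, 927, 536, 627 and 562 FPKM in replicates 7 to 12. Every db/db mouse lay above every Ctrl mouse. Of the Case mice, 3 lay above all Dapa mice, while the lowest Case mouse lay below all Dapa mice. The mean was 315 ± 55.5 FPKM in Ctrl (n = 5), 1040 ± 450 FPKM in Case (n = 6) and 632 ± 149 FPKM in Dapa (n = 6).

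S100g had a log2 fold change of 1.65 ± 0.29 (SE; interval 1.02 to 2.28, adjusted p = 0.00390) in Case against Ctrl and of 0.90 ± 0.16 (interval 0.55 to 1.26, adjusted p = 0.00215) in Dapa against Ctrl. Between Dapa and Case it was -0.74 ± 0.28 (interval -1.34 to -0.15), with an unadjusted p of 0.0171 and an adjusted p of 0.290. The lower level in Dapa than in Case is therefore not a call.

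S100g is one of the shortest genes of the table, and the libraries differed in the level of short genes relative to long ones. The length implied by its counts and FPKM was 480 bases, and 99.2% of 11414 expressed genes were longer. The index of short against long genes was set as the median log2 deviation of the shortest 10% of genes from their mean over all mice, minus that of the longest 10%, with no member included. It was -0.094 to 0.104 in Ctrl. In Case it was 0.068, 0.186, -0.137, -0.020, -0.072 and 0.177 in replicates 1 to 6, and in Dapa 0.076 in replicate 9 and -0.091 to -0.019 in the other 5 mice. The 4 db/db mice with an index above 0 were the 4 with the highest S100g. Whether this index reflects measurement or expression was not tested.

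With the index as a term in the fit, S100g kept its difference from Ctrl, at 1.36 (adjusted p = 0.000912) in Case and 0.99 (adjusted p = 0.000459) in Dapa. The value of Dapa against Case shrank to -0.30, with an unadjusted p of 0.0472 and an adjusted p of 0.449. Calb1 stood at 1.46 against Ctrl in Case and at 1.69 in Dapa with this term.

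**Figure D2:**
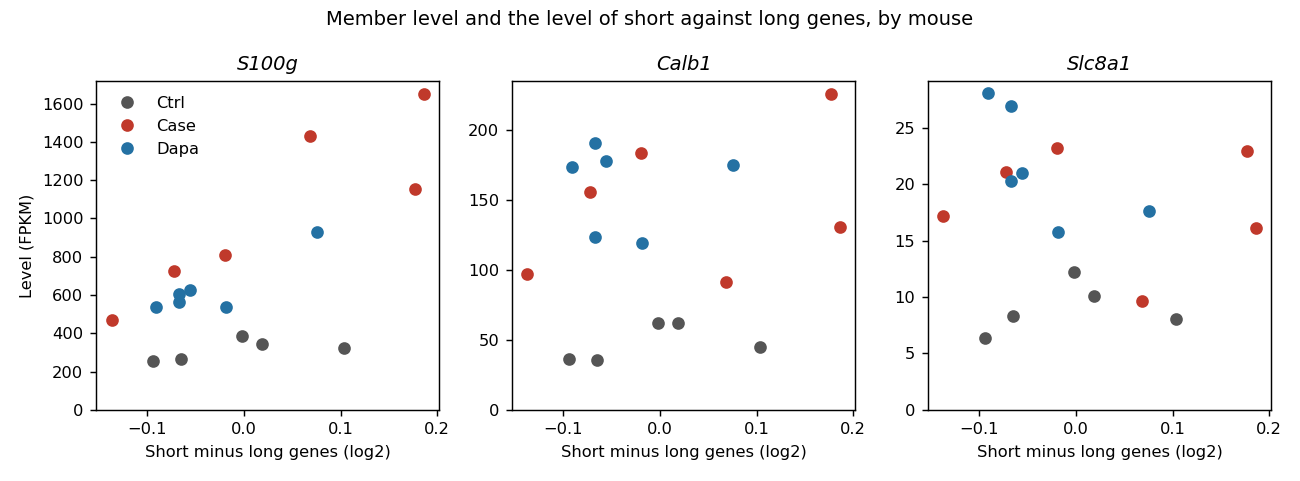
The level in FPKM (vertical axis, linear) of S100g, Calb1 and Slc8a1 in each mouse against the index of short against long genes in the same library (log2, horizontal axis), 1 point per mouse. S100g is highest in the 3 Case mice and the Dapa mouse to the right of 0 (927 to 1648 FPKM), and at any index the Ctrl mice stay at or below 388 FPKM.

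Pvalb encodes parvalbumin, a calcium buffer found in the early distal convoluted tubule. The gene (ENSMUSG00000005716) lies at chr15:78191114-78206400 on the minus strand. The Ctrl mice stood at 33.6, 27.6, 21.0, 26.8 and 21.2 FPKM, the Case mice ranged from 19.7 to 50.1 FPKM (median 29.9 FPKM) and the Dapa mice from 27.8 to 39.1 FPKM (median 35.5 FPKM). The groups overlapped. Unlike those of Calb1 and S100g, its log2 fold change did not pass the test in Case against Ctrl (0.23, interval -0.29 to 0.76, adjusted p = 0.569) or in Dapa against Ctrl (0.28, interval -0.03 to 0.59, adjusted p = 0.158). Between Dapa and Case it was 0.06 (interval -0.41 to 0.52, adjusted p = 0.933). Without Ctrl replicate 1, the highest Ctrl mouse, Pvalb was called in Dapa against Ctrl at 0.42 (adjusted p = 0.0382), as it was on log2(FPKM + 1) with limma at 0.39 (adjusted p = 0.0363).

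**Figure D3:**
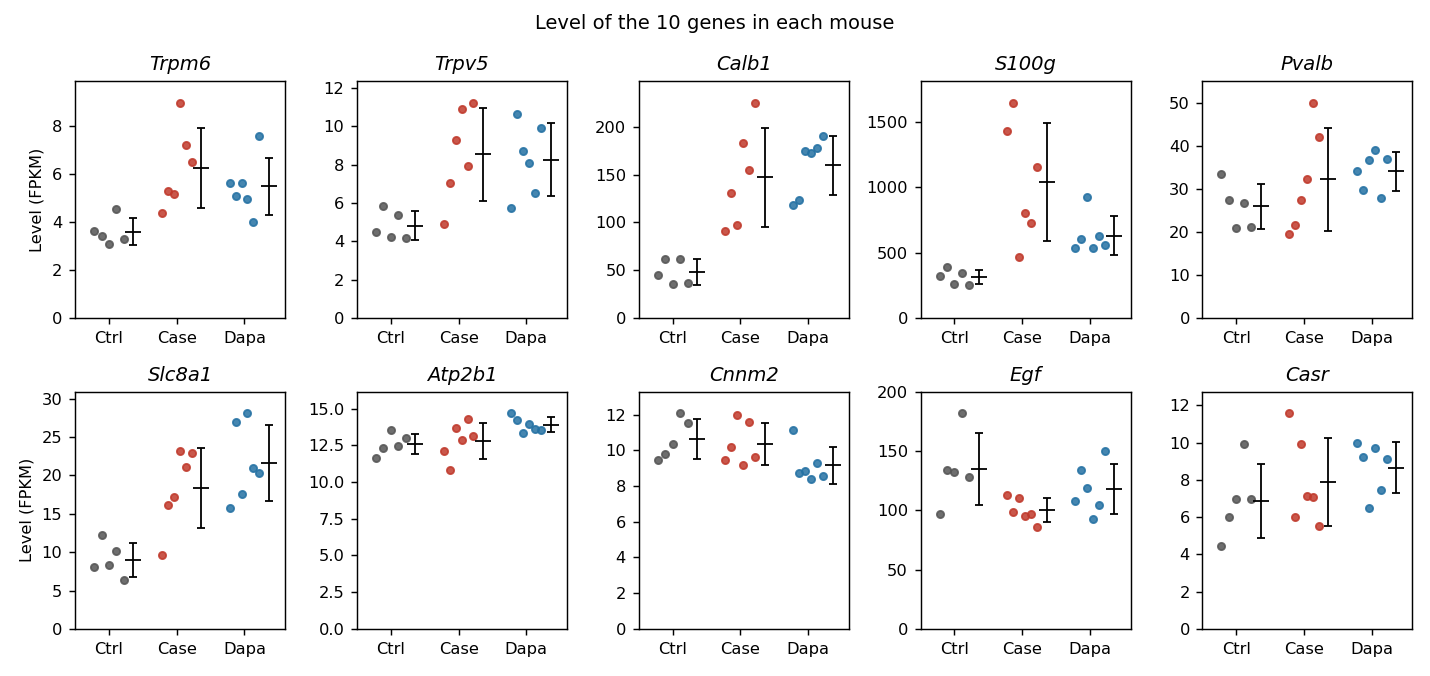
The level in FPKM (vertical axes start at 0) of each of the 10 genes, with 1 point per mouse and a bar for the mean and SD of 5 Ctrl, 6 Case and 6 Dapa mice. All db/db points of Calb1 and S100g lie above the Ctrl points, those of Atp2b1 and Casr overlap with them, and the Case points of S100g spread from 471 to 1648 FPKM.

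Slc8a1 encodes NCX1, the sodium-calcium exchanger through which most calcium leaves the distal cell. The gene (ENSMUSG00000054640) lies at chr17:81388691-81649607 on the minus strand. The Ctrl mice stood at 8.02, 12.2, 8.37, 10.1 and 6.38 FPKM. The Case mice ranged from 9.68 to 23.2 FPKM (median 19.2 FPKM) and the Dapa mice from 15.7 to 28.1 FPKM (median 20.7 FPKM). All 6 Dapa mice and 5 of 6 Case mice lay above every Ctrl mouse, the exception being Case replicate 1.

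The mean of Slc8a1 was 2.04 times that of Ctrl in Case and 2.40 times in Dapa. The log2 fold change was 0.95 ± 0.23 (SE; interval 0.46 to 1.45, adjusted p = 0.0175) in Case against Ctrl and 1.15 ± 0.18 (interval 0.76 to 1.55, adjusted p = 0.00101) in Dapa against Ctrl. Between Dapa and Case it was 0.20 (interval -0.24 to 0.65, adjusted p = 0.702). The call in Case against Ctrl was lost with a term for the 7 libraries in the fit, at 0.72 (adjusted p = 0.102).

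Atp2b1 encodes PMCA1, the calcium pump that works beside the exchanger and is present in most cell types. The gene (ENSMUSG00000019943) lies at chr10:98915152-99026143 on the plus strand. It varied least among the members, with 11.7 to 13.5 FPKM in Ctrl, 10.8 to 14.3 FPKM in Case and 13.3 to 14.7 FPKM in Dapa. The log2 fold change was -0.05 (interval -0.24 to 0.13, adjusted p = 0.734) in Case against Ctrl, 0.09 (interval -0.08 to 0.26, adjusted p = 0.633) in Dapa against Case and 0.04 (interval -0.10 to 0.17, adjusted p = 0.702) in Dapa against Ctrl. Of the Dapa mice, 5 of 6 lay above all Ctrl mice, while the intervals against Ctrl did not reach the values of Slc8a1.

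Cnnm2 encodes a protein of the blood-facing membrane of the distal convoluted tubule that is needed for magnesium balance. The gene (ENSMUSG00000064105) lies at chr19:46761596-46878795 on the plus strand. The Ctrl mice stood at 9.44, 9.80, 10.4, 12.1 and 11.5 FPKM. The Case mice ranged from 9.16 to 12.0 FPKM (median 9.91 FPKM) and the Dapa mice from 8.40 to 11.2 FPKM (median 8.79 FPKM). Of the 6 Dapa mice, 5 lay below every Ctrl mouse and 4 lay below every Case mouse, and Dapa replicate 7 stood apart from them at 11.2 FPKM.

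Cnnm2 was the member called lower in Dapa against Ctrl, while 5 others were called higher. Its log2 fold change was -0.32 ± 0.09 (SE; interval -0.52 to -0.12, adjusted p = 0.0197) in Dapa against Ctrl, and -0.12 (interval -0.31 to 0.07, adjusted p = 0.396) in Case against Ctrl. Between Dapa and Case it was -0.19 (interval -0.39 to 0.00363, unadjusted p = 0.0538, adjusted p = 0.392). With limma on log2(FPKM + 1) the value of Dapa against Ctrl was -0.20 (adjusted p = 0.104), which is not a call.

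Egf encodes the precursor of epidermal growth factor, which is made in the thick ascending limb and the distal convoluted tubule and is known to stimulate Trpm6. The gene (ENSMUSG00000028017) lies at chr3:129677565-129755316 on the minus strand. The annotated antisense gene 6330410L21Rik overlaps it and summed to 506 counts over all mice, against at least 19388 counts of Egf in each mouse, and 8.11% of its 50-base stretches also occurred in transcripts of other genes. The Ctrl mice stood at 96.7, 134, 133, 182 and 129 FPKM.

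The Case mice ranged from 85.8 to 113 FPKM (median 97.9 FPKM) and the Dapa mice from 92.9 to 150 FPKM (median 113 FPKM). Case and Ctrl overlapped through Ctrl replicate 1 alone, as the other 4 Ctrl mice lay above all Case mice, and 3 of 6 Dapa mice lay above all Case mice. Egf had a log2 fold change of -0.50 ± 0.13 (SE; interval -0.78 to -0.23, adjusted p = 0.0239) in Case against Ctrl, and the mean in Case was 0.743 times that in Ctrl. In Dapa against Ctrl it was -0.29 (interval -0.62 to 0.03, adjusted p = 0.161), and in Dapa against Case 0.22 (interval -0.04 to 0.48, adjusted p = 0.453). The call in Case against Ctrl was lost without Ctrl replicate 2 or 3, at -0.50 and -0.51, and on log2(FPKM + 1) with limma, at -0.40 (adjusted p = 0.0689). With a term for the 7 libraries it was lost at -0.45 (adjusted p = 0.0778).

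Casr encodes the calcium-sensing receptor, which in the thick ascending limb lowers calcium uptake when blood calcium is high. The gene (ENSMUSG00000051980) lies at chr16:36493696-36562141 on the minus strand. It was at 4.44, 6.01, 6.99, 9.96 and 6.95 FPKM in Ctrl, at 5.55 to 11.6 FPKM in Case (median 7.11 FPKM) and at 6.49 to 10.0 FPKM in Dapa (median 9.18 FPKM), and the 3 groups overlapped. The log2 fold change was 0.12 (interval -0.32 to 0.56, adjusted p = 0.743) in Case against Ctrl, 0.12 (interval -0.23 to 0.48, adjusted p = 0.786) in Dapa against Case and 0.24 (interval -0.12 to 0.59, adjusted p = 0.303) in Dapa against Ctrl.

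Ordered by level in Ctrl, S100g was first (315 FPKM), followed by Egf (135 FPKM), Calb1 (48.3 FPKM) and Pvalb (26.0 FPKM), and no 2 neighbours among these 4 overlapped between mice. Atp2b1, Cnnm2, Slc8a1, Casr, Trpv5 and Trpm6 followed at 12.6 to 3.60 FPKM, and each overlapped with the next. In Case and in Dapa, Calb1 came before Egf (147 and 100 FPKM in Case, 160 and 118 FPKM in Dapa), though the mice of these 2 genes overlapped. Slc8a1 came before Atp2b1 in both db/db groups, and in Dapa the mice of these 2 genes no longer overlapped. The channels Trpv5 and Trpm6 stayed among the 3 lowest members in every group.

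Some markers of the distal segments were also called higher in db/db kidneys, against 6.09% of all genes higher in Case against Ctrl and 14.2% in Dapa against Ctrl. The summed FPKM of 7 distal convoluted tubule markers (Slc12a3, Tmem52b, Klhl3, Wnk4, Sall3, Emx1, Kcnj10) was 246 to 317 in Ctrl, 279 to 423 in Case and 310 to 406 in Dapa. Of these 7 markers, 1 was called higher in Case against Ctrl and 5 in Dapa against Ctrl. The 8 markers of the connecting tubule and of principal cells summed to 659 to 939, 896 to 1175 and 930 to 1342 FPKM, with 2 and 4 called higher. The 6 intercalated cell markers summed to 65.3 to 92.0, 91.9 to 131 and 107 to 144 FPKM, with 2 and 5 called higher. None of these markers was at 0 in all mice of a group. The 7 proximal tubule markers summed to 1861 to 2086 FPKM in Ctrl, 1145 to 2328 FPKM in Case and 1358 to 1844 FPKM in Dapa, with 2 and 5 called lower, and the 7 thick ascending limb markers to 484 to 1574, 760 to 2777 and 1106 to 1858 FPKM, with 0 and 1 called higher. The 5 podocyte markers summed to 59.0 to 74.5 FPKM in Ctrl, 63.3 to 102 FPKM in Case and 70.6 to 96.8 FPKM in Dapa, with 2 called higher in each db/db group against Ctrl. The 5 smooth muscle markers summed to 19.0 to 51.9, 26.6 to 47.6 and 30.3 to 99.1 FPKM, with 0 and 2 called higher. Of the mean sums in Ctrl, Klk1 gave 685 of 832 FPKM for connecting tubule and principal cells. Umod gave 697.5 of 956 FPKM for the thick ascending limb, and Slc34a1 1388 of 2002 FPKM for the proximal tubule. Slc12a3 gave 176 of 270 FPKM for the distal convoluted tubule. These sums thus mostly follow a single gene each, and neither Klk1 nor Umod was called. The part of these segments and cell types in the values of the members was not tested. The scaling to Slc12a3 given below sets the members against a gene of the distal convoluted tubule only.

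Slc12a3, the sodium-chloride cotransporter that defines the distal convoluted tubule, was at 159 to 199 FPKM in Ctrl, 181 to 281 FPKM in Case and 199 to 273 FPKM in Dapa. Its log2 fold change was 0.30 (adjusted p = 0.146) in Case against Ctrl and 0.40 (adjusted p = 0.0104) in Dapa against Ctrl. The ratio of Calb1 to Slc12a3 within a mouse was 0.199 to 0.349 in Ctrl, 0.444 to 1.08 in Case and 0.451 to 0.892 in Dapa, with every db/db mouse above every Ctrl mouse. The ratio of S100g to Slc12a3 was 1.47 to 2.19 in Ctrl, 2.15 to 8.33 in Case and 2.11 to 3.48 in Dapa, so that both db/db groups overlapped with Ctrl. The ratio of Slc8a1 to Slc12a3 was 0.0402 to 0.0690 in Ctrl, 0.0535 to 0.110 in Case and 0.0620 to 0.114 in Dapa, while that of Trpm6 was 0.0173 to 0.0228, 0.0236 to 0.0319 and 0.0186 to 0.0297, with all Case mice above all Ctrl mice and Dapa overlapping with Ctrl.

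With counts scaled to Slc12a3 in each library, the median of all genes shifted to -0.23 in Case against Ctrl and to -0.38 in Dapa against Ctrl. On that scale Calb1 was called at 1.25 (adjusted p = 0.00164) in Case and 1.25 (adjusted p = 0.000179) in Dapa, S100g at 1.45 and 0.51, and Slc8a1 at 0.65 and 0.77. Trpm6 (0.41 in Case, adjusted p = 0.0535, and 0.10 in Dapa) and Trpv5 (0.46, adjusted p = 0.0955, and 0.27) were no longer called. Egf stood at -0.74 in Case and -0.68 in Dapa and Cnnm2 at -0.39 and -0.71, with Egf called in both and Cnnm2 in Dapa. Atp2b1 was called lower in Dapa too, at -0.36 (adjusted p = 0.0222), which is near the median of all genes on this scale. On this scale, then, Calb1, S100g and Slc8a1 were called higher in both db/db groups, and Trpv5 and Trpm6 were not, with Trpm6 in Case just over the bound. The per-mouse ratios of S100g overlapped with Ctrl, while those of Trpm6 in Case did not. Slc12a3 marks the distal convoluted tubule, so this scale does not account for the connecting tubule, whose part was not tested.

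**Figure D4:**
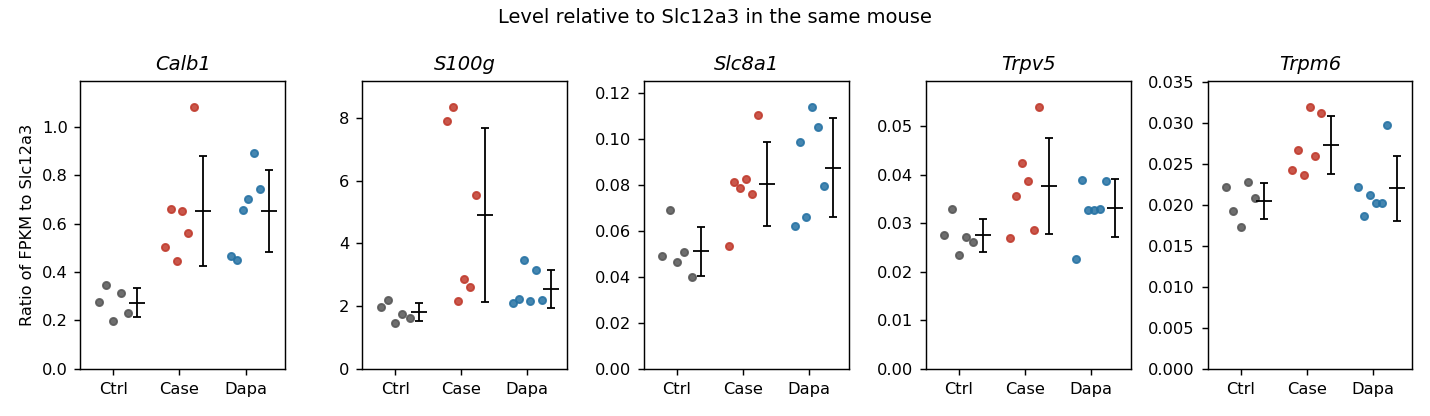
The FPKM of Calb1, S100g, Slc8a1, Trpv5 and Trpm6 divided by that of Slc12a3 in the same mouse (vertical axes start at 0), with 1 point per mouse and a bar for the mean and SD of 5 Ctrl, 6 Case and 6 Dapa mice. For Calb1 every db/db mouse lies above the highest Ctrl ratio of 0.349, and for Trpm6 the Dapa mice overlap with the Ctrl mice.

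Without the 7 libraries set apart by their FPKM, 2 Ctrl, 5 Case and 3 Dapa mice were left, and no member was called in edgeR's quasi-likelihood test. The sizes in Case against Ctrl were then 1.63 for Calb1 (adjusted p = 0.0836), 1.51 for S100g (0.156), 1.04 for Slc8a1 (0.118), 0.91 for Trpm6 (0.113), 0.82 for Trpv5 (0.148) and -0.51 for Egf (0.114). In Dapa against Ctrl they were 1.43 for Calb1, 1.02 for S100g and for Slc8a1, 0.66 for Trpv5, 0.62 for Trpm6 and -0.23 for Cnnm2. Within the 7 libraries, which hold 3 Ctrl and 3 Dapa mice but 1 Case mouse, 3041 genes were called in Dapa against Ctrl, among them 5 members, namely Calb1 at 1.80 (adjusted p = 0.00303), Slc8a1 at 1.27, S100g at 0.76, Trpv5 at 0.67 and Cnnm2 at -0.41. Trpm6 was at 0.44 there (adjusted p = 0.226).

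Within groups, the members followed each other to different degrees over the 17 mice. After the group mean was taken off each log2(FPKM + 1) value, Trpv5 and Slc8a1 had a Pearson correlation of 0.80, Calb1 and Slc8a1 of 0.68, and Trpm6 and Slc12a3 of 0.78. S100g did not follow Calb1 (0.24) or Trpv5 (-0.19), and it ran against Atp2b1 (-0.76). Among 11417 genes, those most like Trpm6 were Klhl3 (0.87), Qsox2 (0.84) and Slco2b1 (0.82), those most like Trpv5 were Cyr61 (0.83), Slc8a1 (0.80) and Scnn1g (0.78), and those most like Calb1 were Tab1 (0.80), Trdmt1 (0.80) and Dcaf15 (0.77). For Slc8a1 they were Dcaf15 (0.82) and Sfrp1 (0.82), for Egf Trmt2a (0.88), Myo19 (0.88) and Zgpat (0.84), and for Cnnm2 Trim28 (0.87), Maz (0.86) and Kat2a (0.85). For S100g they were Gm9493 (0.94), Ndufa2 (0.90) and Pfdn6 (0.88). These values are descriptions, since the points share library depth and composition.

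The other genes of the pathway are given as 8 lists, to be read against the 13.0% of all genes called in Case against Ctrl (6.09% higher, 6.91% lower) and the 29.1% called in Dapa against Ctrl (14.2% higher, 14.9% lower). Among the other entry channels, Trpv6, the close relative of Trpv5, had a log2 fold change of 0.87 in Case against Ctrl (adjusted p = 0.150) and rose by 0.71 in Dapa against Ctrl (adjusted p = 0.0442), at 0.193 to 0.947 FPKM and 18 to 79 counts per mouse. Trpv4, a cation channel that responds to cell swelling, fell by 0.55 in Case (adjusted p = 0.0282) and by 0.72 in Dapa (adjusted p = 0.00114). Trpm7, the widely expressed relative of Trpm6, did not pass the test, at 0.21 and 0.22. Of the 3 channels listed, 0 were higher and 1 lower in Case and 1 was higher and 1 lower in Dapa, with medians of 0.21 and 0.22. Of the exit and buffering relatives, 3 of 6 were tested. Atp2b4, another plasma membrane calcium pump, rose by 0.72 in Case (adjusted p = 0.00260) and 0.67 in Dapa, and Atp2a2, the pump of the endoplasmic reticulum, fell by 0.42 and 0.40.

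Of 9 magnesium transporters (Trpm7 is counted here too), 2 were called higher and 1 lower in Case against Ctrl, with a median of 0.03, and 2 higher and 2 lower in Dapa against Ctrl, with a median of 0.22. Slc41a3, a mitochondrial magnesium transporter that the distal convoluted tubule uses for magnesium balance, rose from 0.553 to 0.915 FPKM in Ctrl to 1.37 to 2.42 FPKM in Case and 1.72 to 2.66 FPKM in Dapa, with no overlap between db/db and Ctrl mice. Its log2 fold change was 1.15 (adjusted p = 0.00361) in Case and 1.37 (adjusted p = 0.000532) in Dapa, from 27 to 113 counts per mouse. Cnnm1, a relative of Cnnm2, rose by 0.36 (adjusted p = 0.0486) and 0.70 (adjusted p = 0.00124), while Cnnm2 was called lower in Dapa against Ctrl. Mrs2, the magnesium channel of the inner mitochondrial membrane, fell by 0.42 (adjusted p = 0.0297) and 0.40, and Slc41a2 fell by 0.76 in Dapa (adjusted p = 0.0164).

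Of 8 hormonal regulators, 0 were called higher and 2 lower in Case against Ctrl, and 3 higher and 3 lower in Dapa against Ctrl. Cyp27b1, which makes active vitamin D, was at 3.98 to 7.54 FPKM in Ctrl, 4.49 to 33.3 FPKM in Case and 17.6 to 54.8 FPKM in Dapa. Its log2 fold change was 1.63 in Case (adjusted p = 0.0552) and 2.87 in Dapa (adjusted p = 0.000289) against Ctrl, and 1.24 in Dapa against Case (unadjusted p = 0.0278, adjusted p = 0.334). All Dapa mice lay above all Ctrl mice, while Case overlapped with both.

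Cyp24a1, which breaks active vitamin D down, rose by 1.95 in Dapa against Ctrl (adjusted p = 0.00809) and stood at 1.01 in Case (adjusted p = 0.391), with Case mice from 0.373 to 41.8 FPKM. Vdr, the vitamin D receptor, fell by 0.61 in Case (adjusted p = 0.0429) and by 0.40 in Dapa (adjusted p = 0.0223). Pth1r, the receptor of parathyroid hormone, fell by 0.45 (adjusted p = 0.0252) and 0.74 (adjusted p = 0.000596). Kl, the gene of Klotho, was at -0.43 in Case (adjusted p = 0.0770) and fell by 0.48 in Dapa (adjusted p = 0.00283), and Fgfr1, its partner receptor, rose by 0.39 in Dapa (adjusted p = 0.00373). Genes of this list that fell and genes that rose can be expressed in the proximal tubule too. Of the 7 markers of that segment, 2 were called lower in Case and 5 in Dapa against Ctrl. The part of the proximal tubule in the values of the list was not tested.

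Among the 7 genes tested of the EGF receptor pathway, 1 was called in Case against Ctrl, a share near that of all genes, and 3 in Dapa against Ctrl. Hbegf, a ligand, fell by 0.90 in Case (adjusted p = 0.00455) and by 0.48 in Dapa (adjusted p = 0.0194). Erbb4, a receptor of the family, was at 0.79 in Case (adjusted p = 0.0806) and rose by 0.99 in Dapa (adjusted p = 0.00444), and the ligand Tgfa rose by 1.04 in Dapa (adjusted p = 0.00327) from low counts of 32 to 110 per mouse. Egfr itself stood at -0.01 and -0.06 and did not pass the test.

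Of the 9 genes tested from the thick ascending limb, 1 was called higher in Case against Ctrl and 2 in Dapa against Ctrl. Bsnd, a chloride channel subunit, rose by 0.69 in Dapa (adjusted p = 0.00219) and stood at 0.32 in Case (adjusted p = 0.0853). The claudins that form the paracellular path, Cldn16 at 0.06 and 0.02 and Cldn19 at 0.73 and 0.84, did not pass the test, nor did Umod at 0.75 and 0.51. The list had medians of 0.32 and 0.53. Umod, Slc12a1, Cldn16, Cldn19, Cldn10 and Kcnj1 are counted both here and among the thick ascending limb markers above. Of the 10 tested genes of the distal convoluted tubule list, 2 were higher and 1 lower in Case against Ctrl, and 6 higher and 1 lower in Dapa against Ctrl. Slc12a3, Kcnj10, Wnk4 and Klhl3 are also among the distal convoluted tubule markers above, so the counts of the list and of the markers share these genes. Kcnj10, the potassium channel of the blood-facing membrane, rose by 0.52 (adjusted p = 0.00347) and 0.79 (adjusted p = 0.000289), and the kinase gene Stk39 by 0.62 (adjusted p = 0.0326) and 0.88 (adjusted p = 0.00321). Wnk4 (0.54), Klhl3 (0.29) and Wnk1 (0.26), which regulate Slc12a3, rose in Dapa against Ctrl. They did not pass the test in Case against Ctrl, nor in Dapa against Case. Pcbd1, which acts in biopterin recycling, fell by 0.39 (adjusted p = 0.0409) and 0.21 (adjusted p = 0.0495).

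Of the 6 tested partners in the trafficking of TRPV5, 1 was called in each db/db group against Ctrl. This share is near that of all genes in Case (13.0%) and under it in Dapa (29.1%). The gene called, Anxa2, rose by 0.71 in Case (adjusted p = 0.0410) and 1.06 in Dapa (adjusted p = 0.00696). S100a10, which binds Anxa2, was at 0.35 and 0.09 and did not pass the test, and neither did Klk1 (0.17 and 0.32) or Sgk1 (-0.16 and 0.46). In Dapa against Case, none of the genes of these 8 lists was called.

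**Figure D5:**
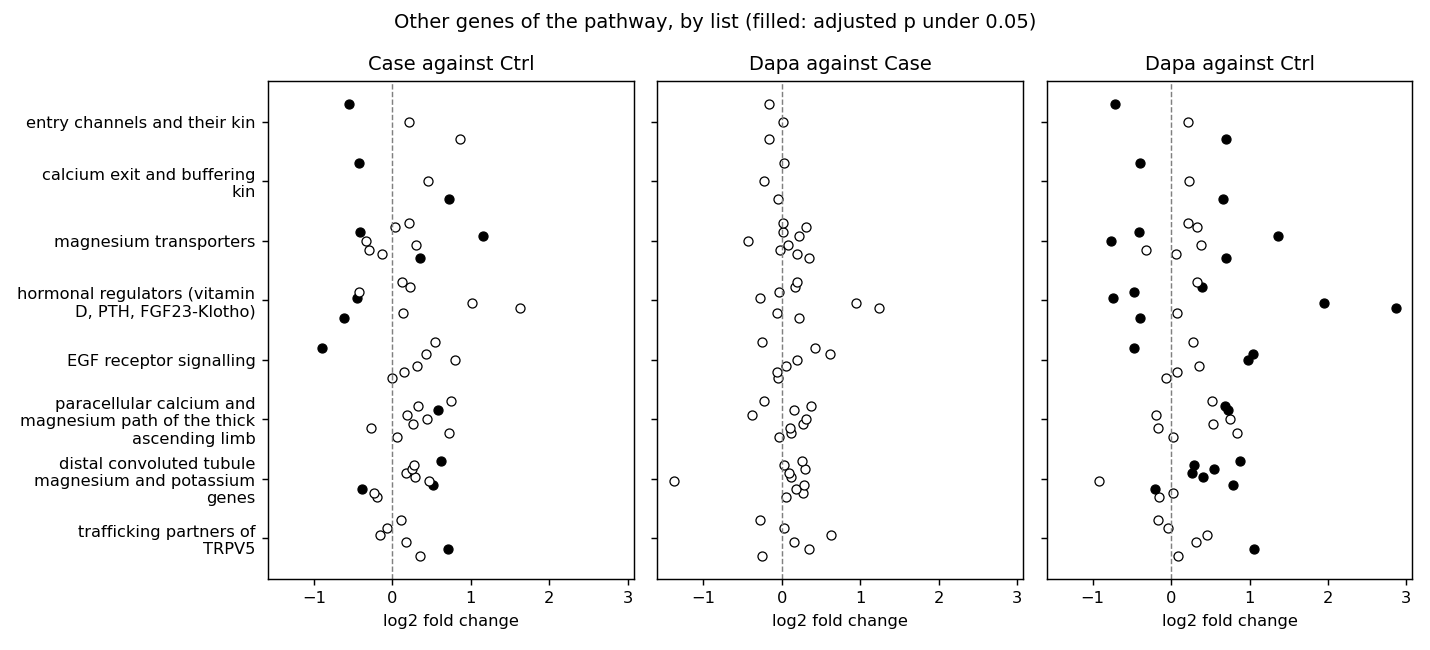
The log2 fold change (horizontal axis) of each tested gene of the 8 lists in the 3 comparisons, with filled circles for an adjusted p under 0.05 in edgeR's quasi-likelihood test. Filled circles lie on both sides of 0 against Ctrl, with Cyp27b1 farthest to the right at 2.87 in Dapa against Ctrl, and there is no filled circle in Dapa against Case.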

How the data were processed

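The counts were made by the authors, who aligned the reads of whole-kidney libraries to mm10 with HISAT2 and obtained a read count per gene with Stringtie, and deposited them beside FPKM values. The deposited FPKM could be rebuilt from counts, totals and gene lengths with an error of at most 0.00553% in genes with at least 10 counts in every mouse, so they hold no TMM factor. Of 22561 genes, 3 with split entries (Sirt1, Tgfb1, Bmp4) were not used. The table holds no value column without a sample.

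The members and gene lists were chosen with earlier results of these data known. The text names all 10 members and, of each list, the genes called in any comparison and up to 2 with the largest change in Case against Ctrl. Beyond these, some genes that did not pass the test are named after their values were seen. Some genes and a motif that this rule covers are not reported here. Likeness searched genes with a mean FPKM of at least 1 and took the 3 highest correlations. Calb2, Myh4, Cyp11b1, Th and the symbol Nherf2, an alias of the listed Slc9a3r2, were not analysed here.

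The counts of the 2 groups of each comparison were fitted with edgeR 4.0.16 under R 4.3.3, after filterByExpr and TMM scaling, and tested by quasi-likelihood with p-values adjusted after Benjamini and Hochberg. The standard error is the log2 fold change over the root of the F statistic. The fit was tested on simulated data. As alternatives, DESeq2 1.42.0 was run, as were the exact test of edgeR, other scalings and filters, all 3 groups in one fit, limma 3.58.1 on log2(FPKM + 1) and log2(FPKM + 0.1), a term for the 7 libraries, scaling to Slc12a3, a replicate block, and fits that left out 1 mouse at a time. Leaving out the 7 libraries, using these alone and the term for short genes were added after the data were seen. No 2 libraries of a group were duplicates (lowest chi-square per gene 15.0). The labels name separate mice, 1 library each, so p-values measure the spread between mice. Markers of other tissues summed to at most 0.982, 8.13, 33.4 and 0.858 FPKM for skeletal muscle, leukocytes, adipocytes and adrenal gland. Endothelial markers summed to 26.9 to 60.4 FPKM. Promoter windows were read from a RefSeq table of GRCm38.p6, in which 9 of 10 members have an entry, and Calb1 does not. Shared stretches were counted in GENCODE M21 transcripts. Analyses used Python 3.11.15 with numpy 2.4.6, pandas 2.3.3 and matplotlib 3.10.9.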

Additional observations from a re-analysis of the deposited data

Results flagged for a closer look

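In 30 groups of mice (10 genes in 3 groups), 2 mice stood apart from the rest of their group by Dixon's test at the 95% level, which flags about 1 in 20 groups by chance. S100g was at 927.3 FPKM in Dapa replicate 9, while the other 5 Dapa mice were at 535.9 to 626.7 FPKM. The index of short against long genes was 0.076 in that library and -0.091 to -0.019 in the other Dapa libraries, and its part in the value was not tested within Dapa. Cnnm2 was at 11.15 FPKM in Dapa replicate 7, while the other Dapa mice were at 8.396 to 9.309 FPKM.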

How the results depend on the processing

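In Case against Ctrl, the genes called were 1219 with a term for the 7 libraries, 258 without these libraries, 707 with the replicate block and 1002 to 2154 with each mouse left out, in place of 1895. They were 1160, 1150, 1002 and 1125 without Ctrl replicate 1, 2, 3 and 5. The members called were 2, 0, 3 and 3 to 6 under the same settings, in place of 6, with 3 without Ctrl replicate 3. The replicate numbers of Ctrl and Case do not pair the mice (correlations of -0.059 to -0.013, and no mouse was most like its own number), so the block is given as a value, and with it the calls of Slc8a1 (0.83, adjusted p = 0.0774), Egf (-0.46, adjusted p = 0.138) and Trpv5 (0.60, adjusted p = 0.0975) were lost. In Dapa against Case, 0 genes were called, but DESeq2 called 200, the exact test 125, the fit of all 3 groups 5, and leaving out each mouse 0 to 7, with 7 without Dapa replicate 7. In Dapa against Ctrl, scaling to Slc12a3 called 6861 genes and leaving out the 7 libraries 273 in place of 4260, with 0 members. Without the fold threshold the DEGs became 1895 and 4260 in place of 553 and 1051. The cause was not tested, beyond the fewer mice where mice were left out.

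Calls of Calb1 and S100g against Ctrl were lost only without the 7 libraries, among all alternatives run, with Calb1 at 1.25 to 1.65 in Case and 1.25 to 1.80 in Dapa. Several members that were not called in the main fit changed sign. Among them, Atp2b1 in Dapa against Ctrl was called lower with scaling to Slc12a3. Scaling to Slc12a3, which moved the median of all genes to -0.23 for Case and Ctrl, to -0.14 for Dapa and Case, and to -0.38 for Dapa and Ctrl, and so lowered the values of all genes, gave -0.089 for Pvalb and -0.10 for Casr in Case against Ctrl, -0.031 for Pvalb, -0.028 for Atp2b1 and -0.048 for Casr in Dapa against Case, and -0.12 for Pvalb, -0.36 for Atp2b1 (near that median) and -0.15 for Casr in Dapa against Ctrl. Atp2b1 in Case against Ctrl was at 0.021 with limma on log2(FPKM + 1) and 0.022 on log2(FPKM + 0.1), and in Dapa against Ctrl at -0.001218 within the 7 libraries. In Dapa against Case, Trpv5 was at 0.067 with the term for the 7 libraries, and without them Calb1 was at -0.20, Pvalb at -0.061 and Slc8a1 at -0.018. With each mouse left out, the ranges that cross 0 were -0.040 to 0.27 for Casr in Case against Ctrl and, in Dapa against Case, -0.19 to 0.050 for Trpv5, -0.0195 to 0.28 for Calb1 and -0.049 to 0.22 for Pvalb. A call takes a difference that is large against the spread of 5 or 6 mice, and Trpv6, Slc41a3 and Tgfa, with at most 113 counts per mouse, carry a larger counting error than the members.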
